A study of Homo sapiens with 10 samples.

Results

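Apilimod, a small-molecule inhibitor of the lipid kinase PIKfyve, was compared with its vehicle DMSO in QGP-1 cells, an established human pancreatic neuroendocrine tumor line. The comparison rests on 4 of the 10 RNA-seq samples of the series, 2 treated with DMSO and 2 with 1 µM apilimod, taken by their sample titles. Apilimod treatment lasted 24 h by the sample labels and 8 h by the published figure legend. Of the other samples, 2 were treated with 0.1 µM Torin-1, an inhibitor of the kinase mTOR, and share the DMSO controls. Torin-1 treatment was likewise 24 h by the labels and 8 h by the published figure legend. A separate table holds 2 samples with the CRISPR interference guide sgPIKFYVE-1 and 2 with its control guide sgNC. Genes of sterol and fatty acid synthesis were set aside as a list, and the text below deals with what else moved and with the genes that were lowered. All samples come from a single cell line, the 4 compared here are labelled wild type, and nothing in the labels says that replicates came from separate cultures, so the p-values measure only the spread between these samples.

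PIKfyve phosphorylates phosphatidylinositol phosphate on late endosomes and lysosomes, and its product controls membrane fission, lysosomal ion channels and the recovery of lysosomes after cargo has been digested. Cells without its activity fill with swollen, fluid-filled vacuoles. Lysosomal genes are under the control of TFEB, TFE3 and MITF (the MiT/TFE factors), which bind the coordinated lysosomal expression and regulation element in promoters and are held in the cytoplasm through the Rag GTPases and folliculin while mTOR complex 1 is active. A second sensor, the liver X receptors (LXR), reads oxysterols and drives the cholesterol exporters ABCA1 and ABCG1.

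The deposited values are normalised signals in CPM, read counts scaled to the size of the library. The 4 libraries held an estimated 10.2 to 13.2 M reads. At that depth 3 reads correspond to 0.228 to 0.293 CPM, with counting error alone in view. Both replicates of each group differed by more than sampling noise. All 10 neuroendocrine markers examined and all 5 epithelial markers had a mean of at least 1 CPM in either group, with summed neuroendocrine values of 8615 to 8633 CPM under DMSO and 7452 to 7579 CPM under apilimod. Leukocyte, fibroblast and endothelial markers summed to 3.93 CPM or less in every one of these samples, and 3 of 6, 3 of 7 and 4 of 5 of them were under 3 reads throughout. Acinar markers summed to 5.34 to 5.65 CPM under DMSO and 13.2 to 14.9 CPM under apilimod, with CPA1, CELA3A and PNLIP under 3 reads in every sample. The part of these markers in the results was not tested. In bulk samples fewer cells of a type, or in a phase of the cell cycle, and less RNA per cell cannot be told apart.

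More genes were called higher than lower under apilimod, and those called higher moved further. Tested were 13520 genes whose average across the 6 columns of the drug table reached 1 CPM. On log2(CPM + 1), 778 of them (5.75%) were higher and 377 (2.79%) lower by the moderated test of limma, called at a Benjamini-Hochberg adjusted p-value below 0.05. Called or not, 6558 log2 fold changes lay above 0 and 6962 below. The synthesis list that was set aside accounted for 50 of the raised genes, from 67 tested, with a median log2 fold change of 1.16, and for none of the lowered genes. That leaves 728 raised genes, whose median log2 fold change was 0.49, with an interquartile range of 0.35 to 0.72. The lowered genes had a median of -0.33, with a range from -0.49 to -0.26 between the same quartiles. A change of at least 1 on the log2 scale was reached by 101 of the 728 raised and by 18 of the 377 lowered genes.

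The genes called lower were the more abundant ones, and whether small changes were called mainly at high levels was not tested. Their median DMSO level was 93.5 CPM, against 43.2 CPM for the raised genes outside the list and 30.7 CPM for all genes tested. Median exon length was close in all groups, at 5819 bases for the lowered, 5197 for the raised and 5108 for all genes tested. The split of calls depended on scaling. After quantile normalisation 658 genes were higher and 536 lower, and with every sample scaled to an equal sum 665 were higher and 562 lower. Leaving out 1 library moved the counts too, to 507 higher and 149 lower without DMSO replicate 1, 463 and 133 without DMSO replicate 2, and 484 and 204 without apilimod replicate 1.

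**Figure D1:**
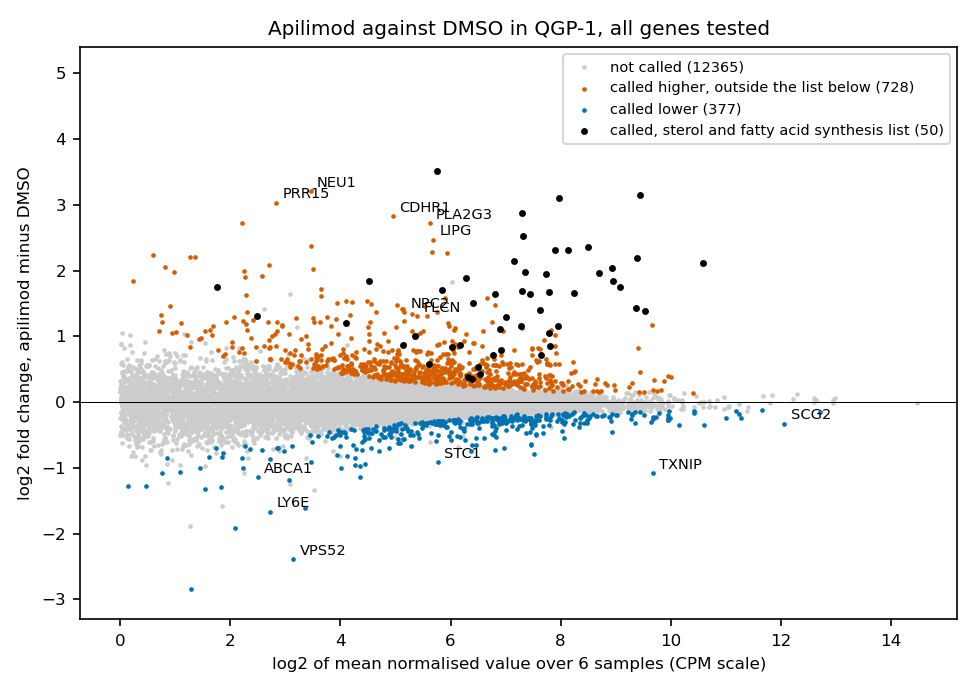
Each point is a gene, with the log2 of its mean over the 6 samples of the drug table (CPM scale) on the horizontal axis and the log2 fold change of apilimod over DMSO on the vertical axis. Of the called genes, 728 outside the synthesis list were higher and 377 lower, the 50 called genes of that list are drawn in black, and changes above 1 are far more frequent among the raised genes than changes below -1 among the lowered.

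The target gene was not among those called. PIKFYVE was at 72 and 69.9 CPM under DMSO and at 83.7 and 81.9 CPM under apilimod. Both treated samples lay above both controls, but the log2 fold change of 0.22, with a standard error (SE) of 0.067, had an adjusted p of 0.0604 from limma. FIG4, the phosphatase of the PIKfyve complex, was at 32.0 and 34.8 CPM against 29.4 and 34.2 CPM, with groups that overlapped. VAC14, the scaffold that holds kinase and phosphatase together, rose from 44.6 and 44.5 CPM to 63.3 and 55.4 CPM, a log2 fold change of 0.40 (SE 0.106, limma adjusted p = 0.0293), a call that was lost when DMSO replicate 1, DMSO replicate 2 or apilimod replicate 1 was left out. Of 43 tested genes of the complex and of phosphoinositide metabolism, 5 (11.6%) were higher and 1 (2.33%) lower. The median log2 fold change of the 43 was 0.01 (-0.02 after quantile normalisation). Over all genes tested the shares were 5.75% higher and 2.79% lower, and every list count below stands against them. Leaving out 1 library reduced the 5 to 2 without DMSO replicate 1 or apilimod replicate 1 and to 3 without DMSO replicate 2. The clearest of them was PIK3C2A, a class II phosphoinositide kinase, which went from 126 and 119.9 CPM to 173 and 178 CPM.

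Outside lipid synthesis, the gene with the highest log2 fold change on log2(CPM + 1) was NEU1, the lysosomal sialidase. It had 1.04 and 2.91 CPM under DMSO and 26.3 and 23.9 CPM under apilimod, 12.7 times the control mean, with a log2 fold change of 3.21 (SE 0.245, limma adjusted p = 7.44e-07). The groups lay far apart, but the DMSO replicates differed widely for so low a level, and the log2 fold change ran from 2.74 to 3.67 with any 1 library left out. NEU1 (ENSG00000204386.10) lies on the reverse strand of chromosome 6 of GRCh38 from 31857659 to 31862906, inside the MHC region, where alternate copies of the sequence can split reads, so its level is uncertain. In the knockdown table, scaled apart from the drug table, NEU1 was at 9.34 and 9.54 CPM with sgNC and at 27.7 and 27.0 CPM with sgPIKFYVE-1.

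Several of the next genes act on lipids without belonging to the synthesis list. PLA2G3, a secreted phospholipase, rose from 17.0 and 19.1 CPM to 127 and 122 CPM. LIPG, endothelial lipase, rose from 22.1 CPM in both controls to 132 and 122 CPM, 5.75 times the DMSO mean. PCYT2, which makes the activated ethanolamine used for phosphatidylethanolamine, rose from 29.8 and 27.9 CPM to 148 and 139 CPM. The groups of all 3 genes lay far apart, with log2 fold changes of 2.72 (SE 0.107), 2.47 (0.104) and 2.27 (0.120) and adjusted p-values of 3.68e-10, 7.61e-10 and 1.04e-08 from limma.

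The remaining genes at the top have other roles. PRR15, a proline-rich protein, went from 2.17 and 0.995 CPM to 21.2 and 18.1 CPM. CDHR1, a cadherin-related protein of photoreceptors, went from 11 and 8.79 CPM to 78.4 and 73.3 CPM. PRKG1, a cGMP-dependent protein kinase, went from 3.45 and 4.56 CPM to 23.2 and 26.2 CPM. Treated and control samples were far apart for all of these, with log2 fold changes of 3.03, 2.82 and 2.37. NCR3LG1, the ligand of an activating receptor on natural killer cells, rose by 1.71, HES6, a transcriptional regulator of the HES family, by 1.58, and SLC2A6, a glucose transporter family member found on lysosomes, by 1.61. The other 5 among the 15 highest were C6orf223, LBHD1, UAP1L1, AK7 and RAB33A, with log2 fold changes of 1.72 to 2.29. Each of the 15 stayed called when any 1 library was left out, without the filter on low values and without the variance trend.

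**Figure D2:**
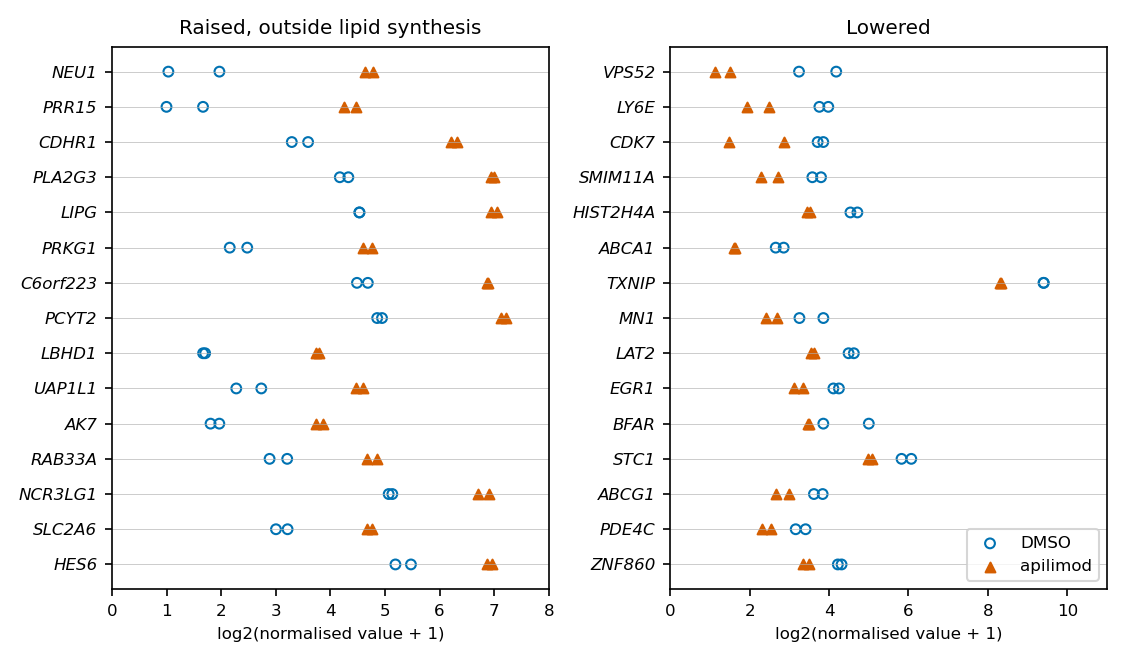
Open circles are the 2 DMSO and filled triangles the 2 apilimod samples, on log2(normalised value + 1), for the 15 genes raised most outside the synthesis list (left) and the 15 lowered most (right). The genes were chosen to have groups apart, and NEU1, VPS52, CDK7 and BFAR show a wide gap between replicates of 1 group.

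Part of the axis that senses lysosomal state rose. Of 22 tested genes for the MiT/TFE factors, folliculin and the Rag GTPase machinery, 8 were higher and none lower, with a median log2 fold change of 0.33 against -0.01 over all genes tested. FLCN, folliculin, which activates the Rag GTPases toward TFEB and TFE3, rose from 28.9 and 27.2 CPM to 71.9 and 69.7 CPM. RRAGC and RRAGD, the Rag GTPases that folliculin acts on, rose from 29.5 and 29.6 CPM to 60.2 and 68.0 CPM and from 29.8 and 33.2 CPM to 65.6 and 69.4 CPM. Their log2 fold changes were 1.31 (SE 0.093, limma adjusted p = 3.25e-07), 1.09 and 1.08. PPARGC1A, a coactivator of mitochondrial genes and a known TFEB target, rose from 10.1 and 9.37 CPM to 29.4 and 30.6 CPM. With 1 DMSO or apilimod library left out, 6 or 7 members were called. The transcripts of the factors themselves did not pass, at 1.99 and 4.06 CPM against 3.20 and 4.65 CPM for TFEB, 27.0 and 28.0 CPM against 33.9 and 31.7 CPM for TFE3, and 5.65 and 6.73 CPM against 4.50 and 4.38 CPM for MITF.

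The proton pump that acidifies lysosomes, the V-ATPase, had 8 of 19 tested subunit and accessory genes higher and none lower. Apilimod lay above DMSO without overlap in 15 of the 19, where 3348 of the 13520 genes tested did so, and the median log2 fold change was 0.19. ATP6V0D1 and ATP6V0E1, subunits of the membrane sector, rose from 97.6 and 104 CPM to 164 and 154 CPM and from 61.2 and 69.6 CPM to 89.8 and 95.4 CPM. ATP6V1E1, in the stalk of the pump, rose from 82.5 and 82.4 CPM to 111 and 110 CPM. These changes were 1.34 to 1.58 times the DMSO mean, smaller than those of the 4 folliculin axis genes named above. The count of 8 fell to 5 without DMSO replicate 2 and to 6 without each of the other DMSO and apilimod libraries in turn.

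Among 72 lysosomal hydrolase and membrane protein genes, 24 were higher and 1 lower, shares of 33.3% and 1.39%, and the median log2 fold change was 0.14. Apart from NEU1, the changes were modest. LIPA, the acid lipase that releases cholesterol and fatty acids from lipoproteins, rose from 146 and 152 CPM to 248 and 278 CPM, 1.76 times the control mean. CTNS, the cystine exporter, rose from 16.3 and 15.9 CPM to 26.9 and 26.3 CPM. SLC17A5, the sialic acid exporter, went from 12.9 and 18.9 CPM to 25 and 25.7 CPM, with a call that was lost without DMSO replicate 1 and without either apilimod replicate. CTSB, cathepsin B, was the single lowered member, from 37.8 and 38.4 CPM to 24.3 CPM in both treated samples, a log2 fold change of -0.63 (SE 0.094, limma adjusted p = 0.000509). Without 1 library the raised count fell to 15 (either DMSO replicate), 16 (apilimod replicate 1) or 17 (apilimod replicate 2).

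**Figure D3:**
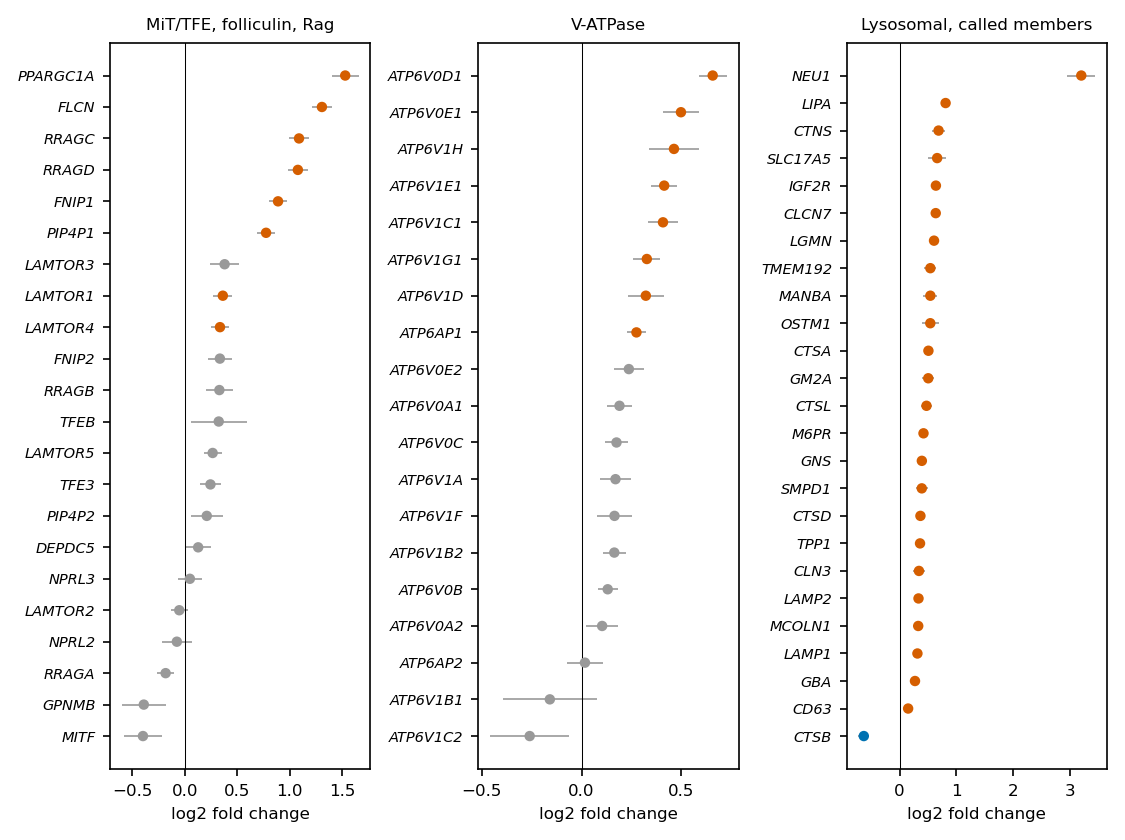
Log2 fold changes of apilimod over DMSO are drawn with 1 standard error of the limma fit for all tested members of the folliculin and V-ATPase lists and for the called members of the lysosomal list, in orange where called higher, blue where called lower and grey where not called. PPARGC1A, FLCN, RRAGC and RRAGD exceed 1, most V-ATPase genes lie to the right of 0, and CTSB alone is called lower among the lysosomal genes.

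Promoters of the raised lysosomal and V-ATPase genes were read for the core of the MiT/TFE element, TCACGTGA, which reads the same on both strands. The RefSeq windows (GRCh38.p14) run from 250 bases before to 50 bases after each start site, and 10470 of the tested genes were matched to 1 or more of them. The element stood in 0.98% of the 35116 windows, and of the tested genes 2.23% held it in at least 1 window. It was found in 30 of 578 matched genes raised outside the synthesis list (5.19%), and in 4 of 292 matched lowered genes (1.37%). In the lysosomal list it stood in 5 of 19 matched raised genes and in 5 of 35 matched genes that were not called higher, and in the V-ATPase list in 2 of 5 and 0 of 9. In the folliculin list it stood in 0 of 6 raised genes and 1 of 12 others, and in the autophagy list in 0 of 11 and 2 of 35. Other motifs were searched on both strands too. The core of the antioxidant response element, TGACNNNGC, stood in 27.2% of the raised genes outside the synthesis list, 12.3% of the lowered and 19.1% of the tested genes, and in 13.3% of all windows. The sterol element TCACNCCAC stood in 2.94%, 3.42% and 1.47% of the same groups and in 1.13% of all windows, and TGATGCAAT, an ATF4 element, in 1 raised and 1 lowered gene. The 7 raised genes of both lists that hold it are shown because they carry the letters at which the MiT/TFE factors are known to bind, with the element in capitals and 20 bases on each side, written 5′ to 3′ on the strand of the gene and ending no more than 20 bases past the start site.
ATP6V0D1, chr16:67481190-67481237, reverse strand: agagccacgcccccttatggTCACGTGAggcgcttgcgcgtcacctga
ATP6V1G1, chr9:114587690-114587737, forward strand: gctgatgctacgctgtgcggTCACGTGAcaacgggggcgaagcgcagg
CTSA, chr20:45891289-45891336, forward strand: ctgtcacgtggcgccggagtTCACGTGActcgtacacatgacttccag
MCOLN1, chr19:7522562-7522636, forward strand: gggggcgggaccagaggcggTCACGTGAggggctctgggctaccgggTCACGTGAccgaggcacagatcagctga
LAMP1, chr13:113297190-113297258, forward strand: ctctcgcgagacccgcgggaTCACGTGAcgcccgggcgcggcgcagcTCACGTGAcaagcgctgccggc
IGF2R, chr6:159968929-159969080, forward strand: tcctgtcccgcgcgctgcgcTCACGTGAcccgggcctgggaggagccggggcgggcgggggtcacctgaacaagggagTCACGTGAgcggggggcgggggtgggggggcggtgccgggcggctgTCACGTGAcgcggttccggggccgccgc
CLN3, chr16:28492055-28492096, reverse strand: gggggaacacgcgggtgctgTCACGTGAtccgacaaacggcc

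Of these 7 promoters, 3 held more than 1 copy of the element. IGF2R, the mannose 6-phosphate receptor that delivers hydrolases to lysosomes, had 3 copies at 133, 75 and 29 bases upstream and rose from 144 and 139.7 CPM to 236 and 208 CPM. MCOLN1, the lysosomal calcium channel that PIKfyve's product opens, had copies at 42 and 15 bases upstream and was at 30.3 and 30.9 CPM against 37.5 and 39.9 CPM. LAMP1, an abundant glycoprotein of the lysosomal membrane, had copies at 29 and 2 bases upstream and was at 105 and 106 CPM against 134 and 129 CPM. These treated samples were above both controls by small margins for MCOLN1 and LAMP1, with log2 fold changes of 0.33 and 0.32. ATP6V0D1 had its copy 60 bases upstream. A match of these letters is a description and does not show binding. The windows of NEU1, FLCN and RRAGC did not hold them.

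Autophagy genes were raised in part. Of 55 tested, 13 (23.6%) were higher and 2 (3.64%) lower, against 5.75% and 2.79% of all genes tested. The median log2 fold change was 0.05. TP53INP1 and TP53INP2, which promote autophagosome formation, rose by 1.29 and 1.13, the latter from 53.2 and 48.4 CPM to 112 and 113 CPM. WIPI1, which binds phosphoinositides on forming autophagosomes, rose from 39.2 and 44.6 CPM to 79.1 and 76.8 CPM. PLEKHM1, an adaptor for fusion with lysosomes, went from 4.12 and 4.18 CPM to 7.81 and 10.03 CPM, a call that was lost without apilimod replicate 2. The 2 lowered members act at the start of autophagy and in cargo selection. ULK1, the initiating kinase, went from 32.8 and 32.7 CPM to 24.7 and 23.0 CPM, and NBR1, a cargo receptor, from 142 and 153 CPM to 113 and 125 CPM. The ULK1 call was lost without DMSO replicate 1, DMSO replicate 2 or apilimod replicate 2, and the NBR1 call without DMSO replicate 2 or apilimod replicate 1. Endosomal sorting genes had 6 of 58 higher (10.3%) and 3 lower (5.17%). The raised members were led by VPS18, a subunit of the tethering complexes of late endosomes, at 27.3 and 27.5 CPM against 48.3 and 41.0 CPM. Without apilimod replicate 2 the count of 6 was 3.

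Genes of cholesterol handling changed in both directions. Of 29 genes of cholesterol trafficking, efflux and LXR targets, 5 (17.2%) were higher and 2 (6.9%) lower, against 5.75% and 2.79% of all genes tested. NPC2 and NPC1, which pass cholesterol from the lysosomal lumen to its membrane, rose from 21.5 and 23.6 CPM to 60.1 and 59.3 CPM and from 50.6 and 55.5 CPM to 97.6 and 87.3 CPM. SCARB1, the receptor for high-density lipoprotein, rose from 32.9 and 34.4 CPM to 54.7 and 47.3 CPM. The exporters went the other way. ABCA1 (ENSG00000165029.16) fell from 6.25 and 5.31 CPM to 2.04 and 2.12 CPM, with a DMSO mean 2.78 times the apilimod mean and a log2 fold change of -1.14 (SE 0.182, limma adjusted p = 0.00098). ABCG1 fell from 13.3 and 11.3 CPM to 6.89 and 5.32 CPM, a log2 fold change of -0.91 (SE 0.157, limma adjusted p = 0.00177). Treated and control samples did not overlap for either exporter, and both calls held with each library left out. NR1H3, the gene of LXR alpha, stood at 1.63 and 1.16 CPM against 1.36 and 1.44 CPM. Without DMSO replicate 2 the raised count was 3. In the knockdown table ABCA1 had a log2 fold change of -0.76 (adjusted p = 1.06e-05) and ABCG1 of 0.14 (adjusted p = 0.346), and under Torin-1 they had 0.58 (adjusted p = 0.0219) and 0.25 (adjusted p = 0.224), all from limma.

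Some stress genes downstream of the transcription factor ATF4 rose, whereas chaperones of the endoplasmic reticulum did not. The integrated stress response slows translation while favoring ATF4, which drives amino acid and stress genes. Of 40 tested genes 16 (40%) were higher and 1 lower, with a median log2 fold change of 0.23, and with 1 DMSO or apilimod library left out 12 to 14 were called higher. TRIB3, a pseudokinase induced by ATF4, rose from 21.2 and 19.0 CPM to 55.3 and 59.8 CPM. ATF3 rose from 4.16 and 2.99 CPM to 10.3 and 9.30 CPM. DDIT4, an inhibitor of mTOR complex 1, rose from 38.6 and 42.0 CPM to 83.9 and 85.5 CPM, and STC2, a secreted glycoprotein, from 24.1 and 27.6 CPM to 52.2 and 48.3 CPM. Treated and control samples were well apart for these 4, which led the list. ATF4 itself went from 214 and 221 CPM to 269 and 263 CPM, a log2 fold change of 0.29 (SE 0.050, limma adjusted p = 0.00151). ASNS, asparagine synthetase and a common readout of ATF4, stood at 234 and 233 CPM against 248 and 252 CPM, with a log2 fold change of 0.10 and an adjusted p of 0.313 from limma. SLC38A2, an amino acid carrier, was the lowered member, from 699 and 734 CPM to 551 and 610.1 CPM, and that call was lost without DMSO replicate 2 or apilimod replicate 1.

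In the endoplasmic reticulum list, none of 40 tested genes was called higher and 6 (15%) were lower, with 31 of 40 log2 fold changes below 0 and a median of -0.09. HSPA5 and HSP90B1, the main luminal chaperones, fell from 844 and 836 CPM to 705 and 698 CPM and from 801 CPM in both controls to 685 and 683 CPM. ERO1B, an oxidase for disulfide bonds, and SEC24D, a coat protein of transport vesicles, fell by 0.48 each on the log2 scale. The chaperone drops of 1.20 and 1.17 times were small, but replicates differed by far less than the groups did. The count of 6 was 4 without either DMSO replicate.

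A list drawn up for amino acid carriers of the plasma membrane had 5 of 15 higher and none lower, but not all its members act only there. The leading members were SLC6A17, a transporter of neutral amino acids in vesicles, at 189 and 169.6 CPM against 313 and 292 CPM, and SLC38A7, a glutamine carrier also found on lysosomes, at 26.9 and 25.2 CPM against 42.5 and 41.9 CPM. Leaving out any 1 DMSO or apilimod library gave 4. The glycolysis list had 7 of 26 higher and 1 lower. PFKFB2 and PFKFB4, which make the activator of phosphofructokinase, rose from 27.0 and 28.8 CPM to 77.2 and 79.4 CPM and from 18.8 and 18.6 CPM to 42.0 and 42.7 CPM. ALDOC, the brain form of aldolase, rose from 102 and 104 CPM to 223 and 214 CPM. The glycolysis count fell to 4 without DMSO replicate 1. Among other targets of hypoxia-inducible factor, 5 of 29 were higher and 2 were lower. Those 5 became 2 without either DMSO replicate or apilimod replicate 2 and 3 without apilimod replicate 1. BHLHE40, a circadian repressor, rose from 52.3 and 54.2 CPM to 129 and 118 CPM, and VEGFA, the vascular growth factor, from 66.2 and 67.0 CPM to 101 and 96.8 CPM.

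**Figure D4:**
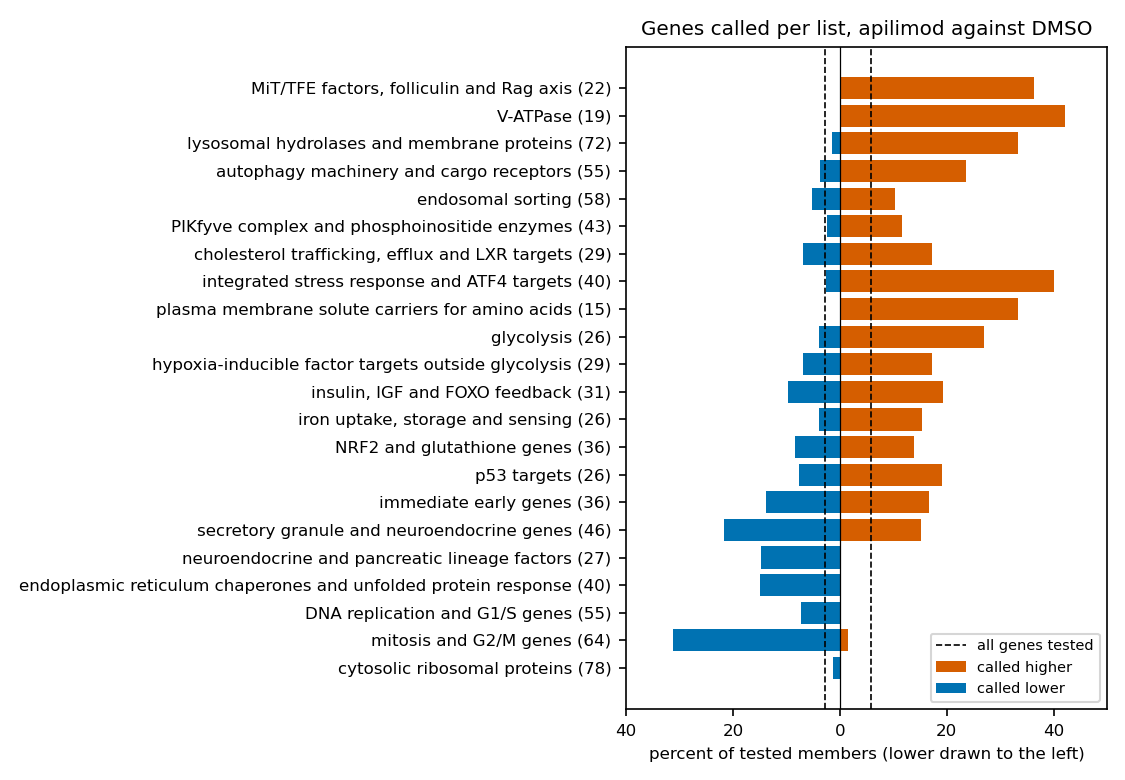
Bars give the percentage of tested members called higher (orange, to the right) and lower (blue, to the left) for 22 gene lists, with the number of members tested in brackets and dashed lines at the shares of all genes tested, 5.75% higher and 2.79% lower. V-ATPase, ATF4, folliculin, lysosomal and amino acid carrier genes reach 33.3% or more on the right, and mitosis genes 31.2% on the left.

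Among the lowered genes, 18 fell by 1 or more on the log2 scale, and 10 of these had a mean under 5 CPM over the 6 samples and are not named. Of the 8 others, 5 cannot be read plainly. VPS52, a subunit of the complex that tethers endosomes to the Golgi, was at 8.47 and 17.1 CPM under DMSO and at 1.85 and 1.20 CPM under apilimod, with a log2 fold change of -2.39. It lies in the MHC region (chromosome 6 of GRCh38, 33250272 to 33272047), and in the knockdown table its replicates stood at 0.665 and 9.11 CPM with sgNC and at 0.566 and 8.66 CPM with sgPIKFYVE-1. The replicate gap in those groups was as large, on the log2 scale, as the drop under apilimod.

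LY6E, a small lipid-anchored surface protein, was at 12.5 and 14.8 CPM against 2.80 and 4.58 CPM, and its replicates with sgNC were 1.22 and 7.36 CPM. Its call was lost without apilimod replicate 1. CDK7, the kinase that activates cell cycle kinases and RNA polymerase, was at 12.1 and 13.5 CPM against 6.34 and 1.80 CPM, and its log2 fold change of -1.60 ran from -2.30 to -0.91 with 1 library left out. Treated samples were low for both genes, but the apilimod replicates differed by more than 1.5 times. SMIM11A and HIST2H4A each have a near-identical copy whose values went the other way. SMIM11A went from 12.9 and 11 CPM to 3.85 and 5.58 CPM while SMIM11B went from 1.15 and 0.0473 CPM to 9.84 and 7.96 CPM, and their sum was 14.1 and 11 CPM against 13.7 and 13.5 CPM. The sum of HIST2H4A and HIST2H4B, which encode the same histone H4, was 34.3 and 36.8 CPM against 28.3 and 25.3 CPM, a log2 ratio of means of -0.41, where HIST2H4A alone had -1.22.

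TXNIP showed the clearest fall. TXNIP (ENSG00000265972.5), an arrestin-like protein that restrains glucose uptake and is induced by glucose through the factors MondoA and ChREBP, was at 675 and 678 CPM under DMSO and at 317 and 321 CPM under apilimod. The groups were separated by many times the gap between replicates, with a DMSO mean 2.12 times the apilimod mean and a log2 fold change of -1.08 (SE 0.040, limma adjusted p = 1.71e-10). ARRDC4, its relative under the same control, fell from 77.4 and 84.1 CPM to 51.6 and 50.3 CPM. Under Torin-1 the same genes were higher than under DMSO, with log2 fold changes of 1.11 for TXNIP and 0.70 for ARRDC4, and the direct difference between apilimod and Torin-1 was -2.19 for TXNIP (adjusted p = 1.98e-14 from limma, in a comparison where 46.7% of genes passed in either direction). In the knockdown both were lower, by -1.74 and -1.04. The wider list of insulin, IGF and FOXO feedback genes had 6 of 31 higher and 3 lower, with PIK3IP1, an inhibitor of PI3 kinase, at 3.62 and 4.4 CPM against 10.7 and 10.5 CPM.

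The lowered side of the immediate early list, genes that respond within minutes to growth factor signaling, was led by 4 genes. EGR1, an immediate early transcription factor, fell from 18.0 and 16.3 CPM to 9.12 and 7.63 CPM. DUSP6, the phosphatase that limits ERK, fell from 167 and 165 CPM to 105 and 106 CPM. PHLDA1 fell from 98.8 and 106 CPM to 59.6 and 62.7 CPM and NR4A2, an orphan nuclear receptor, from 73.3 and 77.4 CPM to 54.1 and 48.5 CPM. Each treated sample was below each control, with adjusted p-values from 1.86e-06 to 0.000296 from limma. The immediate early list as a whole was mixed, with 6 of 36 higher and 5 lower, and the raised members included ATF3 and JUND, a member of the AP-1 family, at 48.1 and 51.4 CPM against 87.1 and 79.7 CPM. With 1 DMSO or apilimod library left out, 3 to 5 were called higher and 4 or 5 lower, and the 3 came without either DMSO replicate or apilimod replicate 1.

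Other lowered genes with close replicates were STC1, LAT2 and ZNF860. STC1, the secreted glycoprotein stanniocalcin and a relative of the raised STC2, fell from 55.7 and 66.2 CPM to 30.8 and 32.7 CPM. LAT2, an adaptor of immune receptor signaling, fell from 23.7 and 21.5 CPM to 11.3 and 10.6 CPM. ZNF860, a zinc finger gene, fell from 17.7 and 18.9 CPM to 9.12 and 10.3 CPM. All 3 were near a log2 fold change of -0.9 and held with any 1 library left out. MN1, a transcriptional coregulator, BFAR, a regulator of apoptosis, and PDE4C, a cAMP phosphodiesterase, were less certain, since MN1 was not called without DMSO replicate 1, PDE4C without any 1 of the 4 DMSO and apilimod libraries, and BFAR, with DMSO values of 31.0 and 13.5 CPM, without DMSO replicate 1 or either apilimod replicate.

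Most mitotic genes lay slightly below DMSO. Of 64 tested mitosis and G2/M genes 20 (31.2%) were lower and 1 higher, 58 of 64 log2 fold changes were below 0, and the median was -0.19. The 4 that fell furthest were DLGAP5, HJURP, KIF20A and BUB1, which serve the spindle, centromere, cytokinesis and the spindle checkpoint. DLGAP5 went from 139 and 136 CPM to 104 and 99.5 CPM, and BUB1 from 277 and 253 CPM to 205 and 211 CPM. KIF20A went from 187 and 180.1 CPM to 149.8 and 136 CPM. Treated samples were below both controls in all of these, at 1.27 to 1.35 times lower means. The count was 10 without DMSO replicate 1 and 8 without DMSO replicate 2, against 15 and 16 without the apilimod replicates. It was 2 without the variance trend, 12 without the filter on low values and 35 with a replicate block. DNA replication and G1/S genes had 4 of 55 lower and none higher, with none left without DMSO replicate 1 or apilimod replicate 1, 1 without DMSO replicate 2 and 2 without apilimod replicate 2. Of 26 tested p53 targets, 5 (19.2%) were higher and 2 (7.69%) lower. The lowered PLK2 and PMAIP1 had log2 fold changes of -0.45 and -0.41. The raised members included CDKN1A, an inhibitor of cell cycle kinases, at 5.61 and 6.55 CPM against 10.9 and 9.45 CPM. CDKN1A, PLK2 and PMAIP1 did not stay called with any 1 of the DMSO or apilimod libraries left out. Without either apilimod replicate the 5 were 3.

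The same mitotic genes stood the other way in the knockdown table. With sgPIKFYVE-1 against sgNC, 55 of 63 tested mitosis genes were higher and none lower, with a median log2 fold change of 0.56, in a comparison where 21.6% of all genes were higher and 20.9% lower. For DNA replication genes 44 of 55 were higher there. Torin-1 lowered 48 of 64 mitosis genes against the shared DMSO samples, in a comparison where 21.8% of genes were lower and 16.6% higher. The drug and knockdown tables were normalised separately and have different controls, and the difference between them was not tested. BUB1, for example, had log2 fold changes of -0.35 under apilimod, 0.62 in the knockdown and -0.45 under Torin-1. Its control values were 277 and 253 CPM under DMSO but 61.3 and 59.55 CPM with sgNC. With sgPIKFYVE-1 it was at 92.9 and 94.0 CPM, still below the 205 and 211 CPM under apilimod. DLGAP5, HJURP and KIF20A likewise had lower control values with sgNC than under DMSO.

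**Figure D5:**
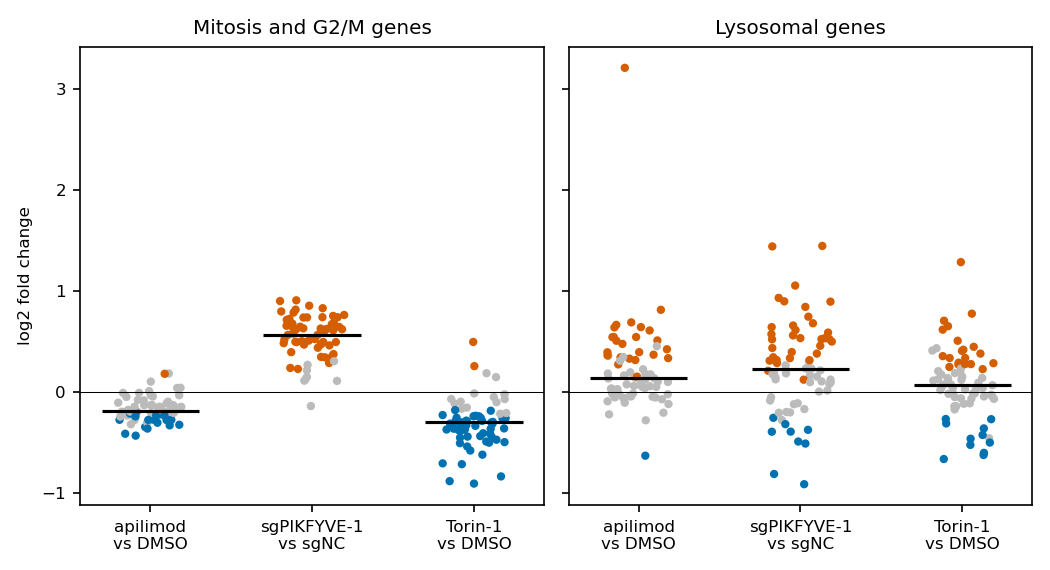
Points are genes of the mitosis list (left) and the lysosomal list (right), with their log2 fold changes in 3 comparisons, in orange where called higher, blue where called lower and grey where not called, and a black line at the median. Mitosis genes have a median of -0.19 under apilimod, 0.56 in the knockdown and -0.30 under Torin-1, and lysosomal genes have medians of 0.14, 0.23 and 0.07.

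Neuroendocrine genes moved in both directions. The secretory list had 7 of 46 members higher and 10 (21.7%) lower. Raised members included RAB3B, a vesicle GTPase, from 569 CPM in both controls to 1030 and 978 CPM, and UNC13A, a priming factor, from 297 and 278 CPM to 406 and 393 CPM. Among the lowered members SCG2, a granin, fell from 4043 and 4084 CPM to 3289 and 3187 CPM, and NTS, the peptide neurotensin, from 1506 and 1595 CPM to 1163 and 1279 CPM. SYT13, a synaptotagmin, fell from 870.4 and 884 CPM to 717 and 737 CPM. The drops were 1.25, 1.27 and 1.21 times, larger than the gap between replicates. CHGA, the standard marker chromogranin A, was at 417 and 429 CPM against 429.8 and 389 CPM, with overlapping groups. Leaving out 1 library gave 4 to 6 higher and 3 to 6 lower, with the fewest lower without DMSO replicate 2 (3), 4 without DMSO replicate 1, 5 without apilimod replicate 1 and 6 without apilimod replicate 2, and the fewest higher (4) without apilimod replicate 1.

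Among lineage transcription factors, none of 27 was higher and 4 (14.8%) were lower, against 5.75% higher and 2.79% lower over all genes tested. ST18 fell from 144 and 145 CPM to 108 and 101 CPM. PROX1 fell from 210.1 and 218 CPM to 171 and 179 CPM and INSM1, a master regulator of neuroendocrine cells, from 131 and 139 CPM to 110.4 and 111 CPM, and both were lost without DMSO replicate 2. NKX2-2 was at 6.52 and 6.88 CPM against 3.78 and 3.55 CPM and was lost without any 1 of the DMSO or apilimod libraries. Without DMSO replicate 2 the count of 4 was 1.

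Iron genes showed a few changes. TFRC, the transferrin receptor, rose from 224 and 219.5 CPM to 333 and 364 CPM, and CP, the ferroxidase ceruloplasmin, fell from 44.2 and 45.7 CPM to 25.1 and 31.0 CPM. They were among 4 higher (15.4%) and 1 lower (3.85%) of 26, against 5.75% and 2.79% of all genes tested. NRF2 and glutathione genes had 5 of 36 higher, including PGD and TKT of the pentose phosphate pathway, and 3 lower, including NQO1, the best known NRF2 target, at 553 and 551 CPM against 463 and 478 CPM. The NQO1 call was lost without either DMSO replicate. Without either DMSO replicate the 5 were 3.

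The CEACAM, trefoil, mucin and surface epithelial list had 6 of 28 higher (21.4%) and 3 lower (10.7%), against 5.75% and 2.79% of all genes tested. Lipid droplet, lipin and triglyceride genes had 3 of 24 higher (12.5%), and MHC class I genes 2 of 15 (13.3%), with none lower. Fewer members were called in the lists that follow. Ribosome biogenesis had 2 of 58 higher and none lower, and fatty acid oxidation and peroxisomes 2 of 51 higher and 1 lower. Cytosolic ribosomal proteins had none of 78 higher and 1 lower, but 59 of the 78 log2 fold changes were below 0, with a median of -0.03, and 36 lay below DMSO without overlap, where 3504 of all 13520 genes did. After quantile normalisation 14 of the 78 were called lower, where 536 of all genes were. Sphingolipid and phospholipid enzymes had 3 of 46 higher, interferon-stimulated genes 3 of 34 higher and 1 lower, and heat shock genes 1 of 18 lower.

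Over all genes tested in both tables, 448 of the 723 genes raised by apilimod outside the synthesis list (62.0%) were also higher in the knockdown and 60 (8.30%) were lower there. Of all genes tested in both, 21.87% were higher and 20.96% lower in the knockdown. The 448 are 15.7% of the genes raised in the knockdown outside that list. Of the 374 genes lowered by apilimod, 203 (54.3%) were lower and 57 (15.2%) higher in the knockdown, and the 203 are 7.33% of those lowered in the knockdown outside that list. Genes of the folliculin axis were among those raised in both, with FLCN at 0.66 and RRAGC at 1.01 in the knockdown, and so was NPC2 at 1.31. Others were raised by the drug and lowered in the knockdown, namely DDIT4 (-0.53), PFKFB4 (-0.74), BHLHE40 (-0.72) and VEGFA (-0.37), all called there. Each of these had higher control values with sgNC than under DMSO. BHLHE40 was at 187 and 191 CPM with sgNC against 52.3 and 54.2 CPM under DMSO. With sgPIKFYVE-1 it was at 116 and 113 CPM, and under apilimod at 129 and 118 CPM. The part of the control levels in the opposite signs was not tested. STC1 fell further in the knockdown, with a log2 fold change of -2.72 against -0.92 under apilimod. Agent, controls and normalisation differ between the 2 tables and cannot be told apart.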

How the data were processed

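RNA-seq was done in QGP-1 cells. The authors demultiplexed reads with bcl2fastq 2.20, trimmed them with Trimmomatic and scaled gene-level estimates by the TMM method of edgeR. The quantifier and annotation are not given in the sources used here, and hg38 is named in the submitters' processing notes. The labels describe depletion of ribosomal RNA and the methods oligo(dT) selection. What the authors deposited is a CPM-like signal, scaled within each table, with column sums of 972493 to 1024332. Of the low values 78.3% to 81.7% lay within 0.05 reads of a whole read. Counts could not be recovered from these, and count models were left out. The planned unit was CPM, and the planned test on log2 values was kept. Gene positions are from GENCODE release 29, which holds 35547 of the 35606 IDs, and 27 symbols turned into dates were restored.

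Genes averaging 1 CPM or more were fitted on log2(CPM + 1), which understates changes of low genes, with limma 3.58.1 in R 4.3.3 (eBayes with a trend) over all 6 samples of the drug table, with Benjamini-Hochberg adjustment over all genes and a threshold of 0.05. The knockdown table was fitted apart. On simulated data in the apilimod design, 71.4%, 94.4% and 98.5% of genes changed by 0.5, 1 and 2 on the log2 scale were called, over 13445, 13465 and 13447 genes, with 4, 6 and 9 unchanged genes called. Every simulated gene had the same dispersion, and Torin-1 was given no effect. These shares therefore need not hold for the real samples, where the spread differed from gene to gene.

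Named were the 15 highest and 15 lowest called genes outside the synthesis list with groups apart and a mean of at least 5 CPM, up to 4 called members per list and direction, and PIKFYVE, FIG4 and VAC14. Some genes that the rule names are not reported here. TFEB, TFE3, MITF, ATF4, ASNS, NR1H3, CHGA, SMIM11B, HIST2H4B and the genes with printed promoters were named outside that rule, after their values were seen. The comparison and the gene lists were chosen with earlier results of these data known. Alternatives were another pseudocount, filter, scaling, variance model, set of samples, replicate block and fold cutoff. Figures were drawn with matplotlib 3.10.9.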

Additional observations from a re-analysis of the deposited data

How the results depend on the processing

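The 1155 genes called by limma became 565 without the filter on low values (428 higher, 137 lower), 466 without the variance trend (369 and 97) and 1756 with a replicate block (701 lower). With 1 sample left out, where a lone sample is assumed to vary like the other groups, 596 to 1315 genes were called, 463 to 867 higher and 133 to 448 lower, and past a log2 fold change of 1.5 there were 53 to 63 higher and 5 to 11 lower, against 57 and 5. That cutoff gave 11 lower genes with a pseudocount of 0.1 and 3 without the filter, with a filter at a mean of 5 or without the trend, and a cutoff of 1 gave 139 higher and 18 lower. The replicate numbers were not shown to pair the samples, since differences between replicates correlated across genes at 0.043 to 0.104, and labels give no shared batch. No named gene that was called in the main fit reversed. FIG4, which was not called, ran from -0.177 to 0.036 with 1 library left out. Of the 173 genes taken by the naming rule, 69 lost their call without the filter and 80 without the trend, among them LY6E, CDK7, SMIM11A, MN1, BFAR and PDE4C, and 45 to 59 lost it when 1 DMSO or apilimod library was left out. PIKFYVE, not called in any other setting, passed with the replicate block. The cause of these shifts was not tested.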
